A study of Xenopus tropicalis with 12 samples.

Results

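The protein-coding genes *brs3* (XLOC_020715), *neurod6* (XLOC_033612) and *lman1l* (XLOC_019578), were picked out of the 33875 features of this tadpole brain RNA-seq series because their mRNA was higher after thyroid hormone (T3) in wild type (WT) animals and lower after T3 in animals without a working *thra* gene. They are 3 members of 22018 features with enough counts to test. The members were chosen by their T3 response in WT and their T3 response in the mutant, so these responses and the difference between them are given as measurements without a test. The libraries were made from the preoptic area, thalamus and hypothalamus of *Xenopus tropicalis* tadpoles at Nieuwkoop-Faber (NF) stage 54. The paper states that the dissected piece also held the pituitary gland. There were 4 groups of 3 libraries: WT in vehicle, WT in 5 nM T3, mutant in vehicle and mutant in 5 nM T3, each for 16 h. The mutant (*thra* mt-exon4, labelled thra KO) is homozygous for a TALEN mutation in exon 4 of *thra* that cuts the receptor short before its DNA binding domain, and it derives from the single line TRαM5. The sample labels and the methods give the vehicle as dilute NaOH, while the design text of the series names DMSO, so both vehicle groups are called vehicle here. Each library pooled tissue from 5 tadpoles, and all groups were dissected in the same way. WT frogs came from a commercial supplier, and mutant tadpoles came from crosses of heterozygous frogs. The paper does not state whether the WT tadpoles descended from the supplier's frogs or were siblings from those crosses. A difference between the genotypes therefore cannot be told apart from a possible difference between the stocks.

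Thyroid hormone acts on gene transcription through the nuclear receptors TRα and TRβ, which sit on DNA with or without hormone. Without T3 the receptors recruit corepressors at genes that the hormone induces, and with T3 they recruit coactivators. Metamorphosis of the tadpole depends on the hormone, and in the premetamorphic brain TRα is the receptor made in nearly all cells. The members have unrelated roles. *brs3* encodes bombesin-like receptor 3, a G protein-coupled receptor of the bombesin receptor family that is made in the hypothalamus and bears on feeding and body weight in mice. *neurod6* encodes a basic helix-loop-helix (bHLH) transcription factor of the NeuroD family, which in mammals marks postmitotic excitatory neurons, mainly of the cerebral cortex and hippocampus. *lman1l* encodes a lectin-like membrane protein related to LMAN1, the mannose-binding receptor that carries glycoproteins from the endoplasmic reticulum (ER) to the Golgi.

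The deposited values were RSEM expected counts, an estimate that shares out reads of ambiguous origin. Their sum was 41012459 to 67603703 per library. Counts were put on a common depth as CPM with TMM library sizes, and levels are also given as TPM, which corrects for feature length as well and allows genes to be compared. The feature lengths were 4619 bases for *brs3*, 2950 for *neurod6* and 4181 for *lman1l*. The expected counts of *brs3* and *lman1l* differed from a whole number in 12 of 12 libraries and those of *neurod6* in 10 of 12, some by only 0.01, so all 3 hold reads that RSEM shared out, and their other possible origin was not tested. Mean TPM over the 12 libraries was 25.7 for *neurod6*, above 66.0% of the tested features, 7.63 for *lman1l*, above 37.3%, and 6.45 for *brs3*, above 34.5%. The tissue is bulk, so fewer cells that make a gene and less RNA per cell cannot be told apart.

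The *brs3* mRNA was present at 5.00 to 8.87 TPM in WT and at 4.36 to 8.53 TPM in mutant brain. WT vehicle libraries had 6.27, 5.47 and 5.00 TPM (replicates 1, 2 and 3), and WT T3 libraries had 8.87, 6.96 and 6.98 TPM. Every WT T3 library was above every WT vehicle library, with replicate 1 of the T3 group apart from the other two. In the mutant the order was turned around, with 6.94, 8.39 and 8.53 TPM in vehicle and 5.04, 4.36 and 4.55 TPM in T3, again without overlap. In CPM the group means were 7.78 ± 0.958 in WT vehicle, 10.5 ± 1.54 in WT T3, 11.2 ± 1.26 in mutant vehicle and 6.44 ± 0.473 in mutant T3 (SD, n = 3 each). The log2 fold change of T3 over vehicle was 0.43 (standard error 0.13) in WT and −0.80 (standard error 0.13) in the mutant. Over the 9 pairs of a T3 and a vehicle library the CPM ratio ran from 1.10 to 1.81 in WT and from 0.497 to 0.714 in the mutant. Ordered by level the groups were mutant T3, WT vehicle, WT T3 and mutant vehicle. The lower pair of groups overlapped (highest mutant T3 library 6.95 CPM, lowest WT vehicle library 6.80 CPM), and so did the upper pair (12.3 against 9.74 CPM), so T3-treated WT and untreated mutant brain held *brs3* at levels within their spread.

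Of the members *neurod6* had the highest level and the smallest spread. Its WT vehicle libraries had 24.5, 24.9 and 21.9 TPM, and its WT T3 libraries had 32.6, 27.7 and 32.5 TPM (replicates 1, 2 and 3). All T3 libraries were above all vehicle libraries in WT, replicate 2 being the lowest of the T3 group. Mutant vehicle libraries had 28.6, 29.2 and 26.6 TPM and mutant T3 libraries 18.9, 20.1 and 21.4 TPM, so the groups were apart there too, in the opposite order. Group means were 21.1 ± 1.91 CPM in WT vehicle, 27.2 ± 2.36 CPM in WT T3, 25.1 ± 1.06 CPM in mutant vehicle and 17.8 ± 1.21 CPM in mutant T3 (SD, n = 3 each). The log2 fold change of T3 over vehicle was 0.37 in WT and −0.50 in the mutant, each with a standard error of 0.09. The highest group was WT T3, which overlapped with mutant vehicle (24.5 against 25.9 CPM at the nearest libraries). The lowest was mutant T3, which overlapped with WT vehicle by 0.1 CPM (19.0 against 18.9 CPM). In TPM these lowest 2 groups did not overlap (at most 21.4 in mutant T3 and at least 21.9 in WT vehicle). Unlike in *brs3*, WT vehicle and mutant vehicle were neighbours in the order. Their libraries were separate (at most 22.6 CPM and at least 23.9 CPM), as they were in *brs3* (at most 8.71 CPM and at least 9.74 CPM).

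For *lman1l* the mutant vehicle group stood highest. WT vehicle libraries had 6.63, 5.55 and 4.96 TPM and WT T3 libraries 8.61, 8.71 and 7.71 TPM (replicates 1, 2 and 3), without overlap. In the mutant the vehicle libraries had 9.03, 10.5 and 10.2 TPM and the T3 libraries 6.94, 5.68 and 7.06 TPM. The groups were separate in both genotypes, higher with T3 in WT and lower with T3 in the mutant. The means were 7.21 ± 1.11 CPM in WT vehicle, 10.4 ± 0.758 CPM in WT T3, 12.6 ± 0.978 CPM in mutant vehicle and 8.22 ± 0.983 CPM in mutant T3 (SD, n = 3 each). The log2 fold change was 0.53 (standard error 0.13) in WT and −0.61 (standard error 0.12) in the mutant. WT vehicle and mutant T3, the lowest pair, overlapped (8.34 against 7.10 CPM), whereas WT T3 lay below mutant vehicle in all libraries (at most 10.9 CPM against at least 11.4 CPM). *lman1l* was thus the only member whose T3-treated WT and untreated mutant libraries did not overlap.

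**Figure D1:**
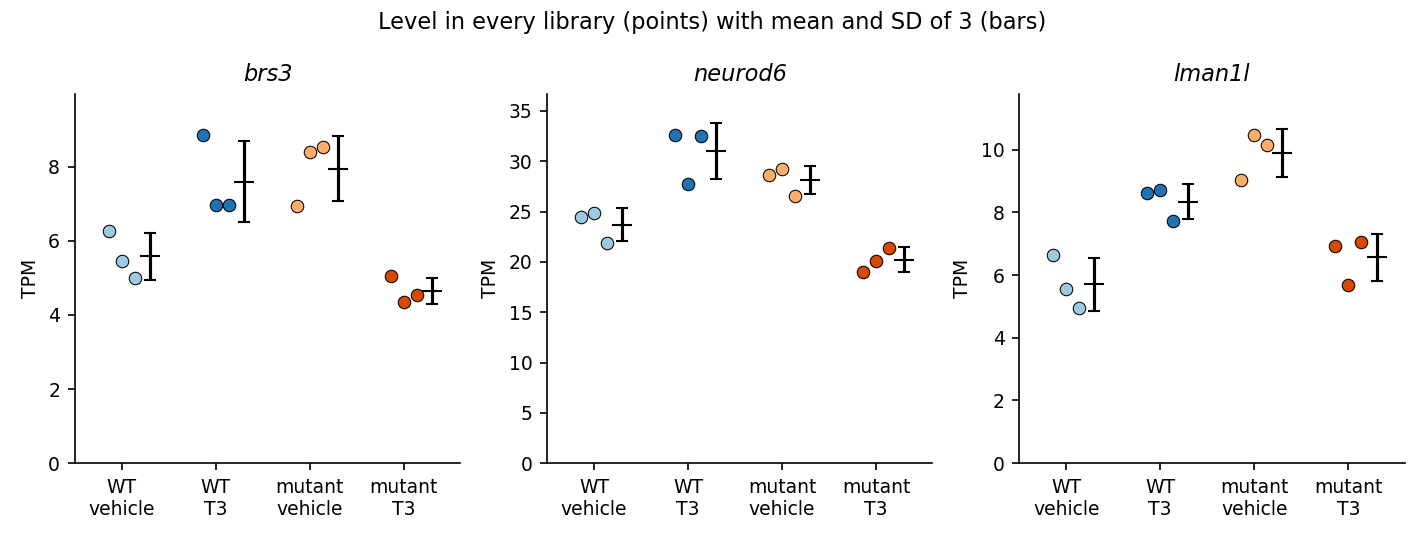
Level of *brs3*, *neurod6* and *lman1l* in TPM (vertical axis, from 0) in the 12 libraries, by group (horizontal axis). Points are libraries in the order of replicates 1, 2 and 3, and the bar beside them is the mean and SD of 3; in all 3 panels the WT T3 points lie above the WT vehicle points and the mutant T3 points below the mutant vehicle points.

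In WT vehicle, replicate 3 was the lowest library for all 3 members, and it stood apart from its group as a whole: its counts differed from those of replicates 1 and 2 by a chi-square per degree of freedom of 39.2 and 29.9, against 9.98 between replicates 1 and 2. Without it the log2 fold change of T3 in WT was 0.35 for *brs3*, 0.30 for *neurod6* and 0.43 for *lman1l*. The part of that library in the WT values beyond these figures was not tested. With counts of 293 to 1606 per library, counting alone gives a coefficient of variation of 2.50% to 5.84%, and the coefficient of variation of CPM between the replicates of a group was 4.24% to 15.4%. The biological coefficient of variation estimated by edgeR was 11.5% for *brs3*, 8.28% for *neurod6* and 11.0% for *lman1l*, beside a median of 10.9% over the tested features.

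Separate groups in opposite directions were uncommon in the series. All WT T3 libraries were above all WT vehicle libraries in 16.0% of the 22018 features, and all mutant T3 libraries were below all mutant vehicle libraries in 7.48%. Both held for 111 features, 0.504% of all, and the 3 members are among them by their choice. The mirror image, lower with T3 in WT and higher with T3 in the mutant, held for 120 features (0.545%), while T3 libraries were above vehicle libraries in both genotypes for 472 (2.14%) and below in both for 548 (2.49%). By the difference between the responses, mutant minus WT, *brs3* was at −1.23, *lman1l* at −1.14 and *neurod6* at −0.87 on the log2 scale (standard errors 0.18, 0.18 and 0.13). Among the 111 features 16 had a more negative difference than *brs3*, and none of these 16 reached a group mean above 3.50 CPM. CPM does not correct for length, and some of the 16 are short and stood above *brs3* in TPM. Group means were 14.2 to 28.3 TPM for XLOC_026280 (403 bases, difference −1.30). They were 7.67 to 14.9 TPM for new_exon_scaffold_63_920 (332 bases, −1.25) and 4.65 to 7.95 TPM for *brs3*. In 24 of the 111 the highest group mean was that of mutant vehicle, as in *brs3* and *lman1l*, and in 15 WT vehicle was also the lowest, as in *lman1l*. The rule had no threshold on size, so no member lay near one.

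**Figure D2:**
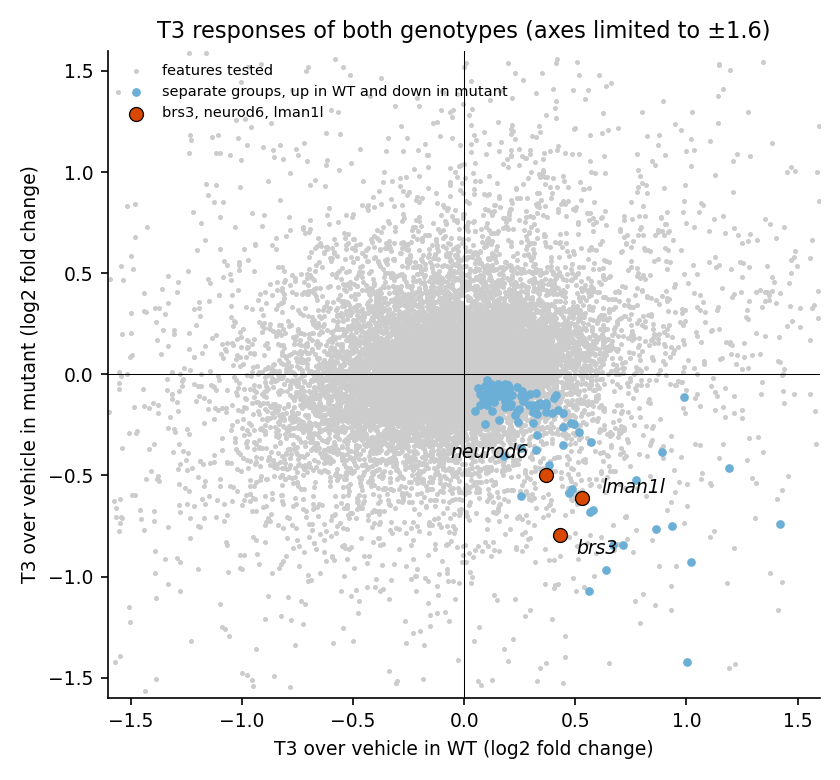
Log2 fold change of T3 over vehicle in WT (horizontal axis) and in the mutant (vertical axis) for the features tested, within ±1.6 on both axes. Grey points are features, blue points are those of the 111 features with separate groups, higher in WT and lower in the mutant, that lie within the axes, and orange points are the members, at 0.43 and −0.80 for *brs3*, 0.37 and −0.50 for *neurod6* and 0.53 and −0.61 for *lman1l*.

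The difference between the genotypes had opposite signs in the 2 treatments. In vehicle the log2 fold change of mutant over WT was 0.52 for *brs3*, 0.25 for *neurod6* and 0.80 for *lman1l* (standard errors 0.13, 0.09 and 0.13), and in T3 it was −0.71, −0.61 and −0.34 (standard errors 0.13, 0.09 and 0.13). Mutant libraries were thus all above WT libraries in vehicle, as in 6.79% of features, and for all 3 members mutant T3 libraries were all below WT T3 libraries, as in 16.9%. These values use the libraries that chose the members and were not tested. The average of the genotype difference over both treatments does not depend on either T3 response, and it is the one contrast that was tested for the members. By edgeR's quasi-likelihood test over all features, 1396 of 22018 passed an adjusted p (Benjamini-Hochberg) threshold of 0.05 for this average, 6.34%, with 745 higher and 651 lower in the mutant. None of the 3 members did. For *neurod6* the average was −0.18 (95% interval −0.32 to −0.04, unadjusted p = 0.013, adjusted p = 0.11, edgeR), for *lman1l* it was 0.23 (0.04 to 0.42, unadjusted p = 0.022, adjusted p = 0.14, edgeR) and for *brs3* it was −0.09 (−0.29 to 0.11, unadjusted p = 0.33, adjusted p = 0.60, edgeR). At an unadjusted p under 0.05 there were 2 of 3 members and 5086 features (23.1%). DESeq2 (adjusted p = 0.63 for *brs3*, 0.061 for *neurod6* and 0.092 for *lman1l*) and limma-voom (0.62, 0.10 and 0.13) called none either. Without WT vehicle replicate 3 the test was passed by *neurod6*, at −0.22 (adjusted p = 0.025, edgeR, with 0.025 to 0.23 over its alternatives). In that setting 3244 features passed, beside 1396 with all libraries. With a library left out the groups are unequal, so the average is no longer independent of the WT response that chose the gene. The intervals leave room for an average genotype difference in *lman1l* of up to 0.42 on the log2 scale.

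**Figure D3:**
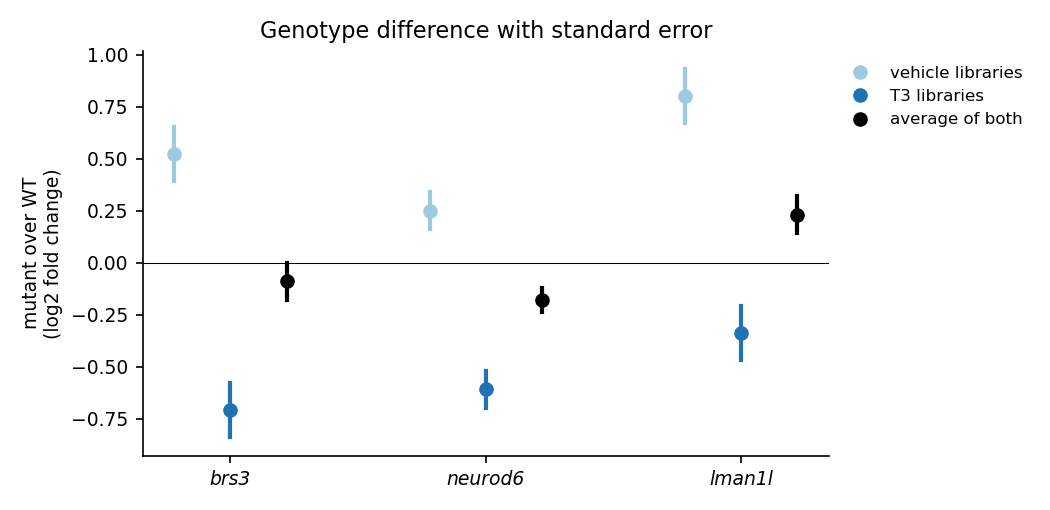
Log2 fold change of mutant over WT (vertical axis) for each member in vehicle libraries (light blue), in T3 libraries (dark blue) and averaged over both (black), with standard error bars from the fit of 12 libraries. The vehicle values, 0.25 to 0.80, lie above 0, the T3 values, −0.71 to −0.34, below it, and the averages, −0.18 to 0.23, on both sides of it.

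The features most like each member were found by Pearson's r of log2 CPM over the 12 libraries, which share the groups and the depth, so r is a description. The feature most like *neurod6* was its relative *neurod2* (XLOC_034602), another bHLH factor of the NeuroD family that acts in the maturation of neurons, at r = 0.931. It was followed by XLOC_027053 (0.906) and *c5orf30* (XLOC_033366, 0.902). The same *neurod2* came second for *brs3*, at r = 0.914, between XLOC_022478 (0.934) and a new_exon feature (0.910). For *lman1l* the nearest features were XLOC_043857 (0.907), XLOC_007317 (0.876) and XLOC_022373 (0.861), none with a symbol here. Between the members r was 0.869 for *brs3* and *neurod6*, 0.832 for *brs3* and *lman1l* and 0.652 for *neurod6* and *lman1l*, and 191 other features were closer to *lman1l* than *neurod6* was. Since r does not depend on size, the features may differ in the size of their changes: *c5orf30* had log2 fold changes of 0.21 in WT and −0.16 in the mutant, and XLOC_007317 of 0.15 and −0.09, while *neurod2* had 0.47 and −0.59.

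**Figure D4:**
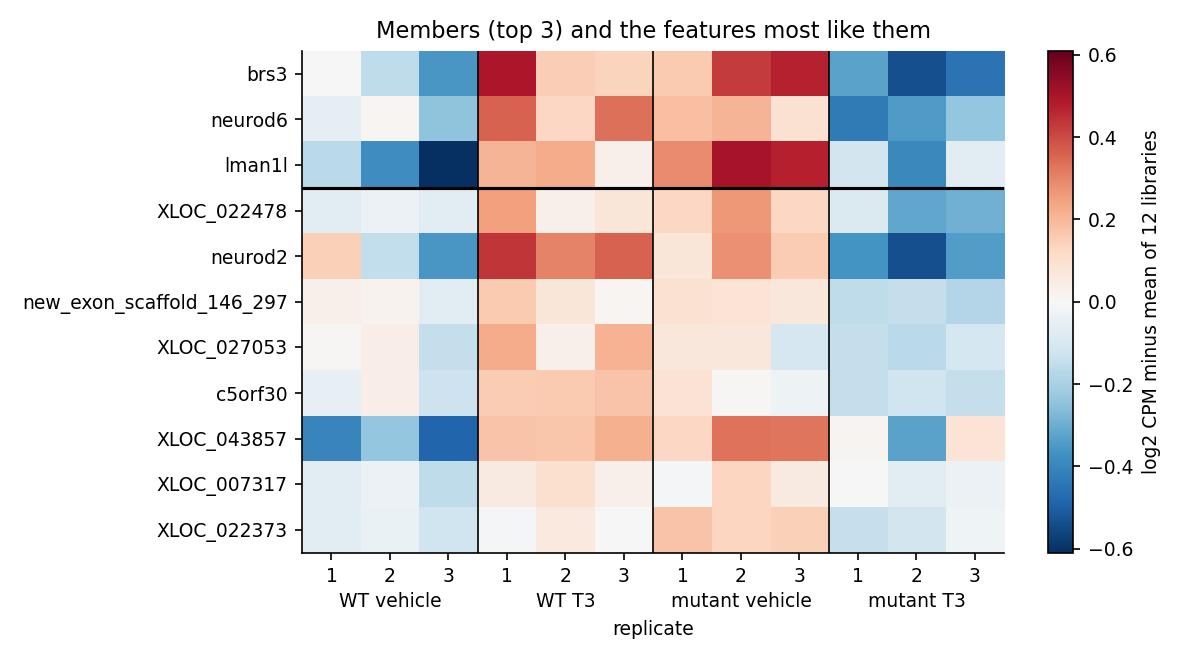
Log2 CPM minus the mean of the 12 libraries (colour, red above and blue below the mean) for the members (top 3 rows) and the 8 features most like them, in the replicates of the 4 groups (columns). Members and *neurod2* are red in WT T3 and mutant vehicle and blue in mutant T3. The other features are mostly paler and differ in single libraries: XLOC_043857 is deep blue in WT vehicle and slightly red in mutant T3 replicates 1 and 3, and XLOC_027053 is blue in mutant vehicle replicate 3.

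The level of *neurod2* was below that of *neurod6* in every group. It had 20.4, 16.2 and 14.7 TPM in WT vehicle, 25.0, 22.8 and 24.0 TPM in WT T3, 19.3, 22.3 and 20.2 TPM in mutant vehicle and 14.4, 12.8 and 14.5 TPM in mutant T3. T3 libraries were all above vehicle libraries in WT and all below them in the mutant, and WT vehicle replicate 3 was again the lowest of its group. The list of neural bHLH factors and their partners held 39 symbols, of which 3 were paired with an identifier: *neurod6*, *neurod2* and *id4*, an inhibitor of DNA binding by bHLH factors. Pairing was by exact symbol, so *hes6.1*, given below, was not counted although the list held *hes6*. These pairings came from the table of genes that the study found regulated by T3 in WT, so their WT responses were not tested here. For the T3 response in the mutant edgeR called 0.254% of all features. The log2 fold change there was −0.59 for *neurod2* (standard error 0.11), which is given without a test because the same libraries singled it out as most like *neurod6*, and 0.00 for *id4* (standard error 0.06, unadjusted p = 0.97, adjusted p = 1.0, edgeR). In the genotype average *id4* was higher in the mutant, by 0.17 (standard error 0.05, adjusted p = 0.045, edgeR). The value of *neurod2* was −0.25 (standard error 0.08), likewise without a test, since r runs over the libraries of both genotypes.

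Other features with a symbol and the same pattern of separate groups were named by the size of the difference between their responses. There were 39 features with a symbol among the 111, the members included, beside 1554 of the 22018 features tested. Symbols came from the study's list of genes regulated by T3 in WT, so the named features are not a fair sample of the pattern. XLOC_043507, set apart below, had the largest difference of these. Next came *gabrr3*, a GABA receptor subunit with group means of only 0.833 to 1.64 TPM. Its log2 fold change was 0.99 in WT and −0.11 in the mutant, and after it came *neurod2*. It was followed by *c1orf89* (0.52 and −0.28), np_001015957.1 (0.48 and −0.24), *hes6.1*, a Hes6 bHLH factor that favours neuronal differentiation (0.42 and −0.17), *dcakd* (0.31 and −0.24), *lpcat3*, a lysophospholipid acyltransferase (0.33 and −0.20), *elmod3* (0.37 and −0.14) and *chst13*, a sulfotransferase of chondroitin (0.32 and −0.18). XLOC_043507 also belongs here, but its symbol is that of a let-7 hairpin and the feature was not matched to the miRNA, so no value is given. In none of these named genes was the mutant response as large as in the members or *neurod2*. The members were chosen by that response and *neurod2* was singled out by its likeness to them. This gap was therefore built in and is no result. Features of the pattern without a symbol also had mutant responses of that size, such as XLOC_026122 (0.52 and −0.63). The *hes6.1* mRNA stood at 365 ± 87.9 TPM in WT vehicle, 495 ± 18.7 in WT T3, 379 ± 13.2 in mutant vehicle and 340 ± 24.7 in mutant T3 (SD, n = 3 each), and WT vehicle replicate 3, at 265 TPM, was far below replicates 1 and 2, at 428 and 403 TPM. The genotype average is not part of the pattern but uses the same libraries. For it edgeR called 7 of the 111, or 6.31% beside 6.34% of all features. Among them were *lpcat3* at −0.23 (standard error 0.06, adjusted p = 0.045, edgeR) and *chst13* at −0.32 (standard error 0.08, adjusted p = 0.026, edgeR). In vehicle the WT and mutant means lay within their spread, at 49.4 and 50.3 TPM for *lpcat3* and 9.62 and 9.11 TPM for *chst13*. In T3 the WT and mutant means were 62.6 and 44.4 TPM for *lpcat3* and 12.1 and 8.13 TPM for *chst13*. The pattern itself puts the genotype difference lower in T3 than in vehicle. The larger part of the T3 libraries in these 2 averages was therefore built in and is no result.

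The secretory genes around *lman1l* were set beside it by their mutant values. Since *lman1l* was chosen by its own mutant response, a gap to genes not so chosen was built in and is no result. The list of ER to Golgi cargo receptors, coat proteins and glycoprotein folding factors held 43 symbols, of which 9 besides *lman1l* were paired and tested. For the T3 response in the mutant, edgeR, limma-voom and DESeq2 each called 0 of the 9, where edgeR called 0.254% of all features. By each tool 1 of the 9 had an unadjusted p under 0.05, *uggt2*, a folding sensor of glycoproteins, at 0.25 (standard error 0.10, adjusted p = 0.40, edgeR). Log2 fold changes of the 9 ran from −0.06 for *tmed9*, a p24 cargo receptor, to that of *uggt2*. Their median was 0.04 beside 0.00 over all features. In 0 of the 9 were all mutant T3 libraries below all vehicle libraries, beside 7.48% of all features. Counts of 0 among 9 genes are near these shares over all features. The value of *lman1l* was −0.61. *calr*, the ER chaperone calreticulin, was measured at 604 ± 92.4 TPM in WT vehicle, 764 ± 47.8 in WT T3, 578 ± 49.3 in mutant vehicle and 566 ± 95.3 in mutant T3 (SD, n = 3 each). *sec23b*, a coat subunit of the vesicles that leave the ER, was at 106 ± 10.7, 131 ± 1.12, 108 ± 3.51 and 108 ± 3.24 TPM in the same order. In the genotype average 0 of the 9 were called by edgeR and limma-voom, and DESeq2 called *uggt2* as lower; at an unadjusted p under 0.05, 4 were lower by edgeR and 3 by each of the other tools, beside 23.1% of all features in either direction and 6.34% at the adjusted threshold by edgeR. All 9 had been listed by the study as regulated by T3 in WT, so their WT values are not independent evidence.

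**Figure D5:**
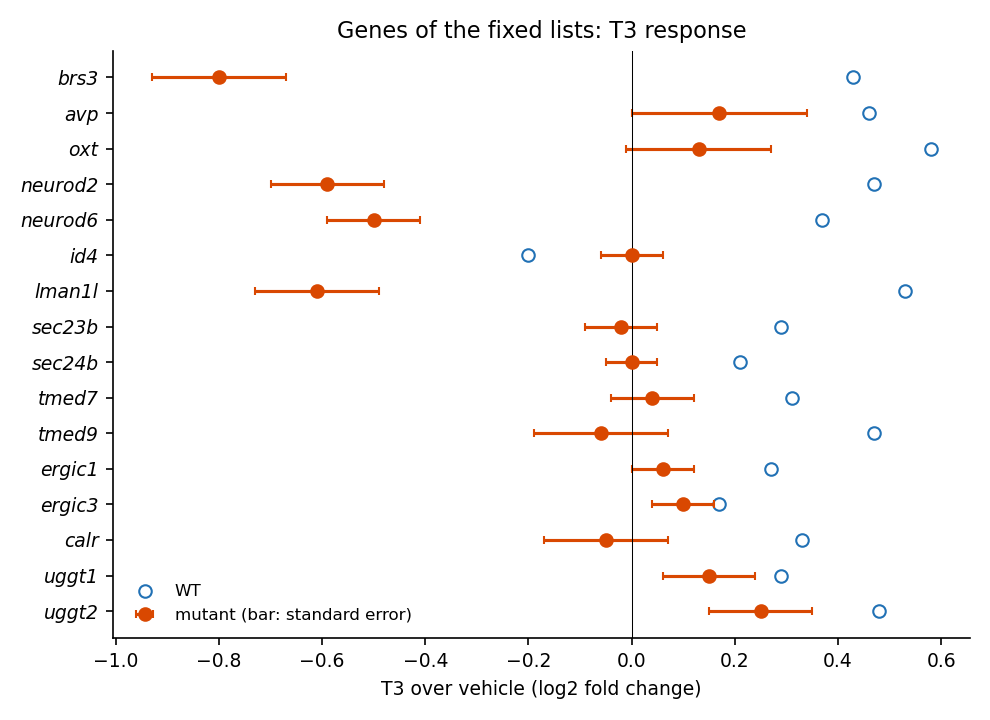
Log2 fold change of T3 over vehicle (horizontal axis) in WT (open blue circles) and in the mutant (orange points with standard error bars) for the tested genes of the pathway lists (vertical axis). The mutant values of *brs3*, *neurod2*, *neurod6* and *lman1l* lie between −0.80 and −0.50, and those of the other genes between −0.06 and 0.25.

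Around *brs3*, no other bombesin receptor or ligand of the list of 5 was paired with an identifier, and of 71 neuropeptides and receptors *avp* and *oxt*, the precursors of the neurohypophysial hormones, were. Both are made by neurosecretory neurons of the preoptic area and hypothalamus and were abundant, at 175 to 400 TPM for *avp* and 498 to 1430 TPM for *oxt*, as defining markers of the dissected region. In WT the T3 libraries were all above the vehicle libraries for both, as in 16.0% of all features. Vehicle and T3 means were 279 and 390 TPM for *avp* (log2 fold change 0.46) and 851 and 1290 TPM for *oxt* (0.58). The markers here and the inner ear genes below were also paired through the study's list of genes regulated by T3 in WT. Their WT values are thus not independent evidence, and their part in the members' values was not tested. The T3 response in the mutant was 0.17 for *avp* (standard error 0.17, adjusted p = 0.82, edgeR) and 0.13 for *oxt* (standard error 0.14, adjusted p = 0.83, edgeR). There edgeR, limma-voom and DESeq2 called 0 of 2, with 0 at an unadjusted p under 0.05, and edgeR called 0.254% of all features. The genotype average of *oxt* was lower in the mutant, by −0.62 (standard error 0.10, adjusted p = 0.0057, edgeR), and that of *avp* was −0.27 (standard error 0.12, adjusted p = 0.22, edgeR). Of 15 neuronal markers *snap25* and *elavl3* were paired, and their summed level was 1110 to 1140 CPM in WT vehicle, 1070 to 1120 in WT T3, 1100 to 1220 in mutant vehicle and 1060 to 1100 in mutant T3. The sum joins unlike values: the log2 fold change of T3 was −0.17 in WT and −0.06 in the mutant for *snap25*, a synaptic protein, but 0.23 in WT, without overlap, and −0.19 in the mutant for *elavl3*, an RNA-binding protein of neurons (standard error 0.07, unadjusted p = 0.020, adjusted p = 0.38, edgeR). The signs of *elavl3* are those of the members, as in 4035 of the features tested (18.3%), and its part in their values was not tested. Of 6 subpallial markers *dlx1* was paired, at 97.7 to 118 CPM in WT vehicle, 127 to 143 in WT T3, 114 to 142 in mutant vehicle and 109 to 119 in mutant T3. All WT T3 libraries were above all WT vehicle libraries, while the mutant groups overlapped. The log2 fold change of T3 for *dlx1* was 0.35 in WT and −0.11 in the mutant (standard error 0.09, adjusted p = 0.77, edgeR), with the same signs. The level of *dlx1* does not show which region its cells came from, and their part in the members' values was not tested. Markers of pallium, pituitary, glia, blood and eye were paired with no identifier, and *thra* and the pallial genes that usually accompany *neurod6* were not analysed here.

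A pair of 4 inner ear markers, *otol1* and *otop1*, was measured, with a summed level of 5.30 to 7.91 CPM in WT T3 and of at most 0.206 CPM in any other library. Neither was called for the T3 response in the mutant by edgeR, limma-voom or DESeq2, with 0 at an unadjusted p under 0.05. Of all features edgeR called 0.254% there. For the genotype average, which includes the WT T3 libraries, edgeR called *otol1* as lower in the mutant, and limma-voom and DESeq2 called both as lower. In 2 of 3 libraries of each other group *otop1* was at 0. These genes were high in the WT T3 group and near 0 in both mutant groups, where the members also differed, and their part in the WT values of the members was not tested.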

How the data were processed

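RNA of 12 libraries was analysed, with groups and replicate numbers from the sample titles. Per the methods, single-end reads of 50 nt were aligned by Bowtie to version 4.1 of the *X. tropicalis* genome, and RSEM estimated abundances for features of the MNHN annotation. The submitters' processing notes name CASAVA 1.8.2 and cutadapt, with no other versions. Expected counts, deposited by the authors without normalization, came with TPM and FPKM from the same counts; FPKM values were not used. Supplementary columns of fold changes and p-values were not used, only identifiers and symbols (1554 tested features). The 3 members also matched RefSeq (UCB_Xtro_10.0) by gene ID. Coordinates and sequences are not given, since the builds differ.

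Expected counts were rounded, scaled by TMM and filtered with filterByExpr, and 22018 features were tested with edgeR 4.0.16 (R 4.3.3) in 1 fit of 4 groups; limma 3.58.1 (voom) and DESeq2 1.42.0 were alternatives, since the methods name limma. Log2 CPM used a prior count of 2. Standard errors are the log2 fold change over the square root of edgeR's F statistic. Intervals are 95% and rest on the spread between libraries. Other alternatives were median-of-ratios factors, no filter, no new_exon features, only the groups compared, deposited TPM, a replicate block and each library left out. Replicates differed by more than sampling noise (chi-square per degree of freedom 6.77 to 39.2). Named genes were the members, the 3 features most like each by Pearson's r, up to 10 other features with a symbol and the same pattern, and paired genes of the lists. Members and lists were chosen with earlier results of these data known. On simulated counts edgeR recovered 158 of 200 genes with a log2 fold change of 1 in the genotype average (79.0%) among 21712 features, with 8 false calls. Plots used matplotlib 3.10.9 (Python 3.11.15).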

Additional observations from a re-analysis of the deposited data

Results flagged for a closer look

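In each member every T3 library of WT lay above every WT vehicle library and every T3 library of the mutant below every mutant vehicle library. The response of the mutant minus that of WT was −1.23 for *brs3*, −0.87 for *neurod6* and −1.14 for *lman1l* on the log2 scale. The difference was not tested, because it chose the genes.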

How the results depend on the processing

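The 3 members kept the direction of all 6 differences under every alternative that was run. Their groups also stayed separate with median-of-ratios factors, no filter, no new_exon features and deposited TPM. Leaving a library out cannot join groups that are separate with all libraries, so it does not bear on the separation. For the same reason it does not bear on the direction of the T3 responses, of their difference or of the genotype difference within a treatment. Only the direction of the genotype average could have turned in those runs. All values except 1 call stayed within the replicate spread or on the same side of the threshold. That exception was the genotype average of *neurod6*, which passed without WT vehicle replicate 3 (−0.22; −0.22 to −0.15 over single libraries left out). The number of features called for the genotype average was 1396, with 2430 by DESeq2 and 571 to 3244 with single libraries left out. It was 624, 641 and 3244 without WT vehicle replicates 1, 2 and 3, 584 and 571 without WT T3 replicates 1 and 3, 840 and 890 without mutant vehicle replicates 2 and 3, and 808, 801 and 879 without mutant T3 replicates 1, 2 and 3; the cause was not tested. The number of features with the opposite pattern was 111, 85 on deposited TPM and 128 with median-of-ratios factors. With single libraries left out it was 135 to 318, where 2 libraries separate more easily than 3, and over 1.5 times higher without WT vehicle replicate 2 (167) and each of the mutant vehicle (172, 318 and 263) and mutant T3 replicates (208, 201 and 196).

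Replicate numbers did not pair the samples: deviations of same-numbered libraries correlated by −0.085 to 0.072. With the number as a block the genotype average was −0.09 for *brs3*, −0.18 for *neurod6* and 0.23 for *lman1l* (adjusted p = 0.65, 0.16 and 0.18, edgeR), and 975 features were called.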
